A study of Mus musculus with 2 samples.

Results

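The genes described here are 51 mouse genes of mitosis and the kinetochore, taken from a given list of symbols and found on the arrays through the RefSeq accession of each probe. A probe with a matching accession was found for 50 of them, by 78 probes, and Prc1, a microtubule bundler of the central spindle, was the 1 without. The list compares with 18434 genes named on the arrays, of which 12272 were well above background in both samples. All 50 members with a probe were among these.

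The RNA came from wild type splenic CD4 T cells of C57BL/6 mice, sorted magnetically to a purity above 98% and stimulated through the T cell receptor and CD28 for 2 of their 5 days in culture. The Th9+IFNgamma culture received IL-4 at 3 ng/ml, TGFbeta at 3 ng/ml and IFNgamma at 10 ng/ml. The Th9 culture received IL-4 at 10 ng/ml, TGFbeta at 3 ng/ml and an anti-IFNgamma mAb at 1 µg/ml, so that the cultures differed in the IL-4 dose and the antibody as well as in IFNgamma. One array was hybridised per culture, the labels do not say how many mice stood behind each, and no difference below has a replicate or a test. Both arrays lay on 1 slide and were read in 1 scan.

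Entry into mitosis is driven by Cdk1 with cyclins A and B, helped by the Polo-like and Aurora kinases. Kinetochores then join each chromosome to spindle microtubules, the spindle checkpoint holds the cell until all are attached, and the anaphase-promoting complex with Cdc20 releases the sister chromatids by having securin and cyclin B degraded. Transcripts of most of these genes build up in late S phase, G2 and mitosis and are low in resting cells, so they are commonly read as signs of cell division. CD4 T cells are resting in the spleen and divide rapidly after stimulation through their receptor.

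Of the 50 members, 49 had a higher signal in Th9+IFNgamma cells than in Th9 cells, against 49.6% of all 12272 measured genes. The differences were of similar size, with a median log2 difference (Th9+IFNgamma minus Th9) of 0.90, against -0.01 over all genes. At least 1.5-fold higher were 44 members, a size that 12.6% of all genes reached in that direction, and 17 were at least 2-fold higher, against 5.15%. None was at least 1.5-fold lower, against 15.5% of all genes, or at least 2-fold lower, against 7.42%. When the arrays were scaled to equal medians, the median over all genes moved to 0.11, and the shares past 1.5-fold became 16.5% on the higher side and 12.5% on the lower side. Members at least 2-fold higher then numbered 26, while the gap between the medians of the members and of all genes stayed at 0.90. The SD of the log2 difference was 0.29 over the members and 0.81 over all genes, whose median signals were lower. In these bulk samples a larger share of dividing cells and more of these transcripts per dividing cell cannot be told apart.

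**Figure D1:**
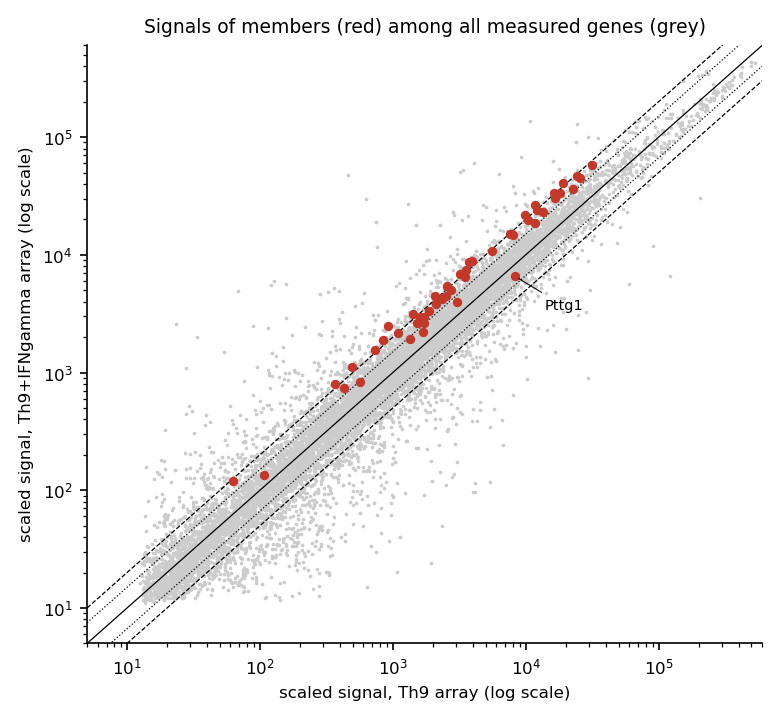
Scaled signals of 12272 measured genes (grey) and of the 50 members (red) on the Th9+IFNgamma array (vertical, log scale) and the Th9 array (horizontal, log scale), with lines at equal signal (solid), 1.5-fold (dotted) and 2-fold (dashed). The members lie in a band above the solid line along the whole range of signals, with Pttg1 alone below it.

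Signals are linear values scaled so that the 75th percentiles of the arrays coincide, and they compare 1 gene between the cultures, never different genes. Each member probe was printed as 1 spot per array. For the log2 difference of a member, the extraction software gave an error of 0.20 to 0.22, whereas the log2 difference over repeat spots of probes printed 10 times scattered with an SD of 0.04 for the brightest class of probes and 0.27 for the dimmest. Within 1 software error of the 2-fold limit lay 35 members, and across the 11 settings used the count past 2-fold ran from 13 to 26, whereas the count past 1.5-fold ran from 41 to 46. Spc24 and Top2a exceeded 2-fold by more than that error. Neither value holds any variation among animals, cultures or labelled preparations.

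Many promoters of mitotic genes carry a CHR element (cell cycle genes homology region), which is bound by MuvB complexes that repress in resting cells and activate in dividing ones, together with CCAAT boxes, which are bound by NF-Y. In RefSeq windows of 300 bases on GRCm38.p6 (250 before an annotated start and 50 after it), 43 members had 48 windows. A CHR (TTTGAA or TTCGAA on either strand) stood in 35 of these windows (72.9%), against 19.2% of all 32851 windows of that length. A CCAAT box (CCAAT on either strand) stood in 38 (79.2%), against 37.4%, and both motifs in 32 (66.7%), against 7.52%. Of the 43 CHR matches in the first window of each member, 30 began within 50 bases of the start. The matching share over all windows was not counted, and such positions make up a sizeable part of a window that ends 50 bases after the start. A match is a stretch of letters and does not show that a factor binds there. The last 120 bases before the annotated start are printed for 4 members with both motifs in that stretch and a different task each. They are also printed for the securin gene Pttg1 (log2 difference -0.34) and the checkpoint gene Mad2l1 (0.60), which hold neither motif in it. Nuf2 (1.07), Nusap1 (0.89) and Birc5 (0.88), which are not printed, hold neither motif in the whole window. The sequences run 5′ to 3′ on the gene's strand, and capitals mark CHR and CCAAT matches, which read TTCAAA and ATTGG when they lie on the other strand.
Cdk1 (chr10:69352913-69353032, minus strand): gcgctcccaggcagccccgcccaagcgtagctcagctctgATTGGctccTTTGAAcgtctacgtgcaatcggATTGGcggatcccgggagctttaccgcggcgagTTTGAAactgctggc
Cdc20 (chr4:118437344-118437463, minus strand): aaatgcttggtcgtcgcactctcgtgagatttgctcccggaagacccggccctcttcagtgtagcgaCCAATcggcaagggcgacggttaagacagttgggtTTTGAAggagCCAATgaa
Top2a (chr11:99024190-99024309, minus strand): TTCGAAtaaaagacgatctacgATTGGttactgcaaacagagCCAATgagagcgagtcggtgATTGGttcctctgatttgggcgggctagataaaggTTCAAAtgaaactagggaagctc
Kif11 (chr19:37376262-37376381, plus strand): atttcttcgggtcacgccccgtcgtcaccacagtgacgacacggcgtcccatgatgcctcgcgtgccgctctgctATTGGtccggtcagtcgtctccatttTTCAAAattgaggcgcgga
Pttg1 (chr11:43425982-43426101, minus strand): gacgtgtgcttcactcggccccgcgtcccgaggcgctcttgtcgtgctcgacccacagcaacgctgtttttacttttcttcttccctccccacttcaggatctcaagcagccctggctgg
Mad2l1 (chr6:66535101-66535220, plus strand): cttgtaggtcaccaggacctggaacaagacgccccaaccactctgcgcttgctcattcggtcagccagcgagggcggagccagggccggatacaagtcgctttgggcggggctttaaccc
Cdk1 has CHR matches at -71 and -15, Cdc20 at -18 and Kif11 at -19 from the start. In the Top2a stretch the CHR nearest to the start lies at -23, with 3 CCAAT boxes upstream of it.

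Among the 42 measured members with a window, the 31 with a CHR had a median log2 difference of 0.92, and 30 of them passed 1.5-fold on the Th9+IFNgamma side. The 11 without one had a median of 0.60, and 6 of them were at least 1.5-fold higher. Those 11 held Pttg1, Cenpk, Cenph, Ncaph, Plk4 and Mad2l1, which are 6 of the 7 smallest differences in this group, beside Ccnb1, Birc5, Nusap1, Cenpe and Nuf2. Ttk, the other small difference, has a CHR match. For the CCAAT box the medians were alike, at 0.89 in the 32 members with a match and 0.89 in the 10 without. At least 1.5-fold higher were 29 of those 32 and 7 of those 10. Pttg1, Ncaph, Plk4 and Mad2l1 hold neither motif, and nor do Birc5, Nusap1 and Nuf2, so the 2 splits share genes. These splits are descriptions of the listed genes with no test.

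**Figure D2:**
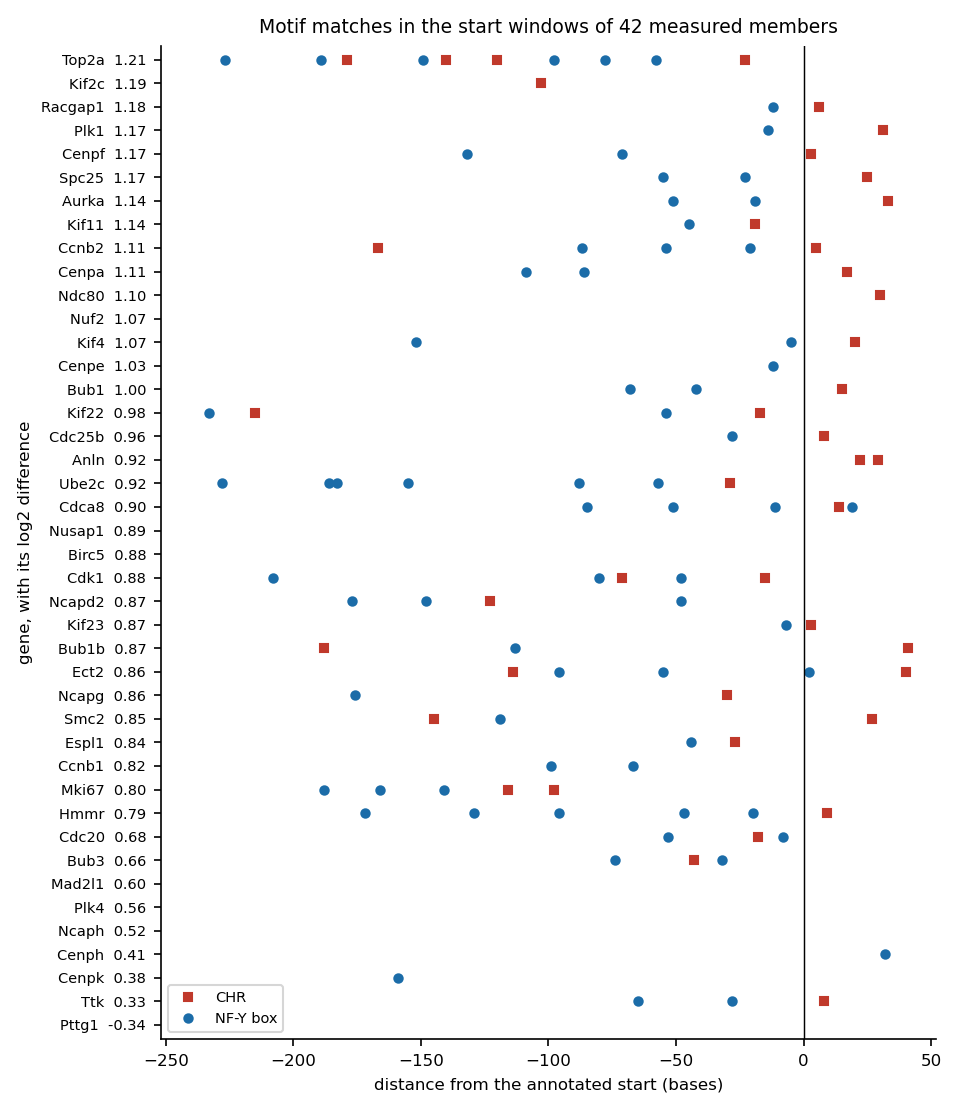
Positions of CHR (red squares) and CCAAT, or NF-Y, box matches (blue circles) from 250 bases before to 50 bases after the annotated start (horizontal axis, bases) in the first window of each of 42 measured members, ordered from the highest to the lowest log2 difference between Th9+IFNgamma and Th9. Most rows hold a red square near the start, and 6 of the 7 lowest rows hold none.

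The group of cyclins and mitotic kinases, which also holds Cdc25b, Cdc25c and Plk4, was higher throughout in Th9+IFNgamma, with a median log2 difference of 0.92 over 9 genes. Plk1, the Polo-like kinase of mitotic entry and spindle assembly, had a signal of 26292 in Th9+IFNgamma cells and 11678 in Th9 cells (2.25-fold). Aurka, the centrosomal Aurora kinase, was read at 21820 in Th9+IFNgamma cells and 9897 in Th9 cells (2.20-fold). Ccnb2, a B-type cyclin, was read at 41101 in Th9+IFNgamma cells and 19057 in Th9 cells (2.16-fold). All 3 differences lay a little above 2-fold. Cdk1, the kinase these cyclins activate, lay below the 2-fold limit at 5008 in Th9+IFNgamma cells and 2720 in Th9 cells (1.84-fold). Its other probe passed the background call in Th9+IFNgamma cells alone (24.5, against 10.3 in Th9 cells), which gives at least 1.96-fold. That figure is a bound, taken against the lowest Th9 signal called well above background, or against the probe's own Th9 signal where that is higher. The 3 probes of Ccnb1, a main partner of Cdk1, gave log2 differences from 0.77 to 0.85. Ccna2, the cyclin of S phase and G2, was 1.89-fold higher at 19828 in Th9+IFNgamma cells and 10472 in Th9 cells.

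Of the phosphatases that remove the inhibitory phosphates from Cdk1, the members Cdc25b and Cdc25c were higher as well. Cdc25a, outside the members and named after its value was seen, had 273.8 in Th9+IFNgamma cells and 264.5 in Th9 cells (1.04-fold). Cdc25b was 1.95-fold higher by the probe used (14965 in Th9+IFNgamma cells, 7675 in Th9 cells), and its other probes put the log2 difference at up to 1.37. Cdc25c was 1.72-fold higher (744 in Th9+IFNgamma cells, 432.1 in Th9 cells), with a log2 difference of 1.15 by its other probe. Among the member cyclins, kinases and phosphatases of this group, Plk4, which starts centriole duplication, had the smallest difference. It had 831 in Th9+IFNgamma cells and 564.4 in Th9 cells (1.47-fold).

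The spindle checkpoint genes had a median log2 difference of 0.66, and 4 of the 5 passed 1.5-fold on the Th9+IFNgamma side. Bub1b, which encodes the Cdc20 inhibitor BubR1, was read at 3851 in Th9+IFNgamma cells and 2104 in Th9 cells (1.83-fold). Bub3, the partner of Bub1 and BubR1, had 18711 in Th9+IFNgamma cells and 11830 in Th9 cells (1.58-fold), and Mad2l1, which binds Cdc20 directly, had 2619 in Th9+IFNgamma cells and 1727 in Th9 cells (1.52-fold). Both lay close to the 1.5-fold limit and were under it in some settings, with lowest log2 differences of 0.57 for Bub3 and 0.55 for Mad2l1. Ttk, the kinase that starts checkpoint signalling, was read at 134.3 in Th9+IFNgamma cells and 106.5 in Th9 cells (1.26-fold), and its log2 difference was 0.08 with normexp background correction in place of 0.33.

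Bub1, a checkpoint kinase, was the 1 member whose probes differed in sign. The probe used read 2185 in Th9+IFNgamma cells and 1092 in Th9 cells, a 2.00-fold difference. The other, assigned to a different RefSeq transcript record of Bub1, read 305.7 in Th9+IFNgamma cells and 316.7 in Th9 cells, a log2 difference of -0.051. The Bub1 value therefore rests on which probe is read.

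Genes that act at the release of sister chromatids split. Cdc20, the activator of the anaphase-promoting complex, was 1.60-fold higher (36384 in Th9+IFNgamma cells, 22755 in Th9 cells). Ube2c, the ubiquitin-conjugating enzyme of that complex, was 1.89-fold higher (14938 in Th9+IFNgamma cells, 7921 in Th9 cells). Espl1, which encodes separase, the protease that cuts cohesin, was 1.79-fold higher (3351 in Th9+IFNgamma cells, 1873 in Th9 cells). Pttg1, which encodes securin, the inhibitor of separase, was the only member lower in Th9+IFNgamma, at 6553 in Th9+IFNgamma cells and 8320 in Th9 cells (log2 difference -0.34, 1.27-fold lower). It was read by 1 probe and remained lower under the 10 alternative settings, between -0.40 and -0.23. Its difference is under 1.5-fold in size, on the opposite side of 0 from that of Espl1.

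The chromosomal passenger complex, which corrects faulty attachments and later guides cytokinesis, gave closely grouped values. Its kinase gene Aurkb had 2640 in Th9+IFNgamma cells and 1527 in Th9 cells (1.73-fold). The scaffold gene Incenp had 46741 in Th9+IFNgamma cells and 24161 in Th9 cells (1.93-fold). The targeting subunits Birc5 (survivin) and Cdca8 (borealin) were 1.85-fold and 1.87-fold higher, so that all 4 genes lay between log2 differences of 0.79 and 0.95, a range narrower than the software error of 1 of them.

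Centromere and kinetochore genes had a median of 1.10, and their values fell into separate ranges. The Ndc80 complex, which grips microtubules at the outer kinetochore, has 4 subunits and all of their genes exceeded 2-fold, with log2 differences of 1.42 for Spc24, 1.17 for Spc25, 1.10 for Ndc80 and 1.07 for Nuf2. Spc24 had the largest difference of all members, at 2464 in Th9+IFNgamma cells and 920.7 in Th9 cells (2.68-fold). Ndc80 itself was read at 1562 in Th9+IFNgamma cells and 730.2 in Th9 cells. The 4 genes were at least 2-fold higher in all 11 settings. Cenpa, the histone variant that marks centromeres, had 4433 in Th9+IFNgamma cells and 2059 in Th9 cells (2.15-fold), and the kinetochore kinesin gene Cenpe 33389 in Th9+IFNgamma cells and 16376 in Th9 cells (2.04-fold). Cenpf, a large protein of the outer kinetochore, was 2.25-fold higher by the probe used (8920 in Th9+IFNgamma cells, 3971 in Th9 cells), while its second probe gave a log2 difference of 0.67 (117.2 in Th9+IFNgamma cells, 73.8 in Th9 cells).

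Cenph and Cenpk, subunits of the inner kinetochore network that stays on centromeres through the cell cycle, had smaller differences. Cenph had 4005 in Th9+IFNgamma cells and 3016 in Th9 cells (1.33-fold). Cenpk had 2203 in Th9+IFNgamma cells and 1693 in Th9 cells (1.30-fold), and its 2 probes gave the same log2 difference of 0.38. A gap separated the pair from the other 7 genes of the group, whose lowest log2 difference was 1.03. Further genes of that inner network, outside the members and named here after their values were seen, ranged widely. The log2 differences of Cenpt (-0.07), Cenpp (0.06), Cenpc1 (0.23), Cenpo (0.39), Cenpu (0.40) and Cenpq (0.51) lay below the 1.5-fold limit. Those of Cenpw (0.59), Cenpi (0.66), Cenpn (1.05) and Cenpm (1.37) lay above it. Small differences were thus common in the network but not shared by all of it.

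**Figure D3:**
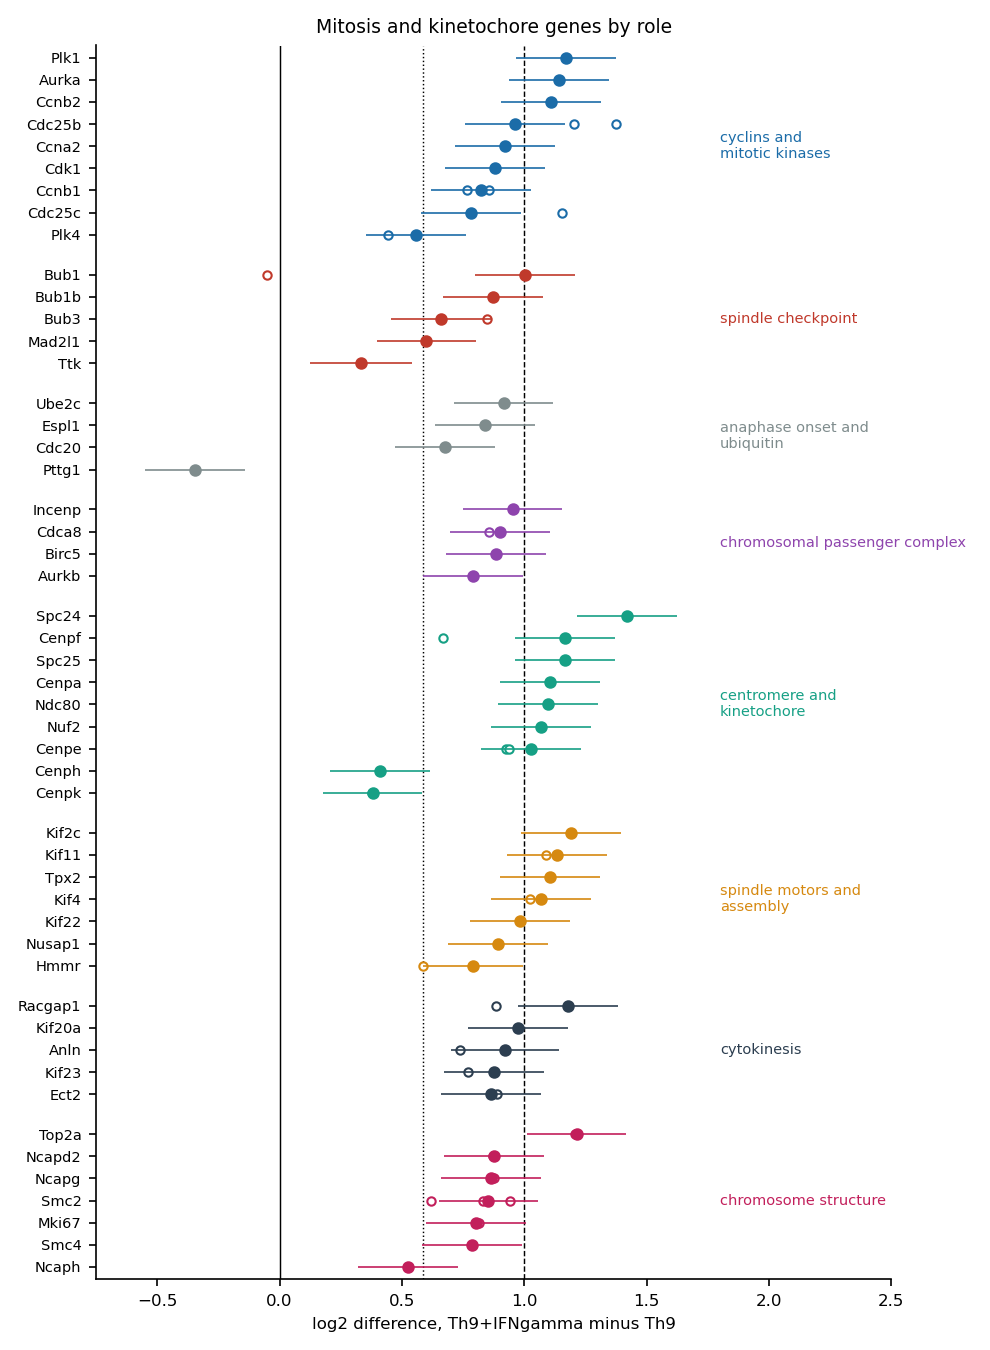
Log2 difference between Th9+IFNgamma and Th9 (horizontal axis) of the 50 measured members, grouped by role, with the probe used (filled, bar = error given by the extraction software) and any other probe measured on both arrays (open), and lines at 0 (solid), 1.5-fold (dotted) and 2-fold (dashed). Pttg1 and the second probe of Bub1 lie left of 0, and Spc24 lies farthest right.

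All 7 genes of motors and spindle assembly factors passed 1.5-fold on the Th9+IFNgamma side, and 4 passed 2-fold. Their median was 1.07. Kif2c, a kinesin that shortens microtubules at centromeres, had 1122 in Th9+IFNgamma cells and 492 in Th9 cells (2.28-fold). Kif11, the kinesin that pushes spindle poles apart, had 800.3 in Th9+IFNgamma cells and 364.3 in Th9 cells (2.20-fold). Tpx2, which activates Aurora A on the spindle, had 6873 in Th9+IFNgamma cells and 3195 in Th9 cells (2.15-fold). The chromosome-arm kinesin genes Kif4 and Kif22 were 2.09-fold and 1.98-fold higher. Nusap1, a microtubule bundler, and Hmmr, a spindle-pole factor, differed less. Nusap1 was 1.86-fold higher and Hmmr 1.73-fold, and the second probe of Hmmr gave a log2 difference of 0.59.

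The 5 measured cytokinesis genes lay between log2 differences of 0.86 and 1.18. Racgap1 and Kif23 together form centralspindlin, the complex that organises the cell's midzone. Racgap1 was 2.27-fold higher by the probe used (1898 in Th9+IFNgamma cells, 837.8 in Th9 cells), with a log2 difference of 0.88 by its other probe. With normexp, where the brightest probe was picked anew, it was 0.77. Kif23 was 1.83-fold higher (2941 in Th9+IFNgamma cells, 1604 in Th9 cells). Ect2, the exchange factor that activates RhoA at the division plane, was 1.82-fold higher, and Kif20a, a kinesin of the central spindle, 1.96-fold higher. Anln, which encodes the contractile-ring scaffold anillin, was dim, at 118.9 in Th9+IFNgamma cells and 62.8 in Th9 cells (1.89-fold), and normexp put its log2 difference at 0.38 in place of 0.92.

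Genes of chromosome structure had a median of 0.85. Top2a, the topoisomerase that untangles sister chromatids, had 8611 in Th9+IFNgamma cells and 3713 in Th9 cells (2.32-fold), and its 2 probes both gave a log2 difference of 1.21. Mki67, the proliferation antigen Ki-67 that coats mitotic chromosomes, had 44926 in Th9+IFNgamma cells and 25736 in Th9 cells (1.75-fold), and its probes gave 0.80 and 0.81. The condensin genes Smc2, Smc4, Ncapd2 and Ncapg, whose products compact chromosomes, were 1.72-fold to 1.83-fold higher. Ncaph, another subunit of the same complex, was read by 1 probe at 1940 in Th9+IFNgamma cells and 1348 in Th9 cells (1.44-fold).

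Probes of a gene mostly gave like values. Of 22 members with several measured probes, 21 had probes of 1 sign. Over all genes with several measured probes that share was 77.5%, and among those at least 1.5-fold apart it was 94.1%, so the sign agreement of the members is that of genes with differences of this size. In 15 members the probes lay within 0.2 log2 units of each other. The median gap was 0.10, against 0.17 over all 4415 genes with several measured probes. Members were also brighter at the median, with 5196 in Th9+IFNgamma cells and 2868 in Th9 cells. Over all measured genes these medians were 969.6 and 965.6. Brightness does not measure transcript amount between genes, but scatter over repeat spots was smaller for brighter probes. The part of brightness in the smaller gap was not tested. Over all 77 member probes well above background on both arrays, 75 were higher in Th9+IFNgamma, 68 of them at least 1.5-fold. Across the 11 settings, 39 members were always at least 1.5-fold higher and 12 always at least 2-fold higher, namely Aurka, Ccnb2, Cenpa, Kif2c, Kif4, Ndc80, Nuf2, Plk1, Spc24, Spc25, Top2a and Tpx2. By setting, 10% to 16.5% of all genes were at least 1.5-fold higher, and 3.56% to 6.54% at least 2-fold higher. The share of all genes past these limits in every setting was not counted, nor were the matching shares of all probes.

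Most other genes of the same processes were higher in Th9+IFNgamma too. The exceptions were Zwint (log2 difference -0.30) and Cenpt (-0.07) among 32 further kinetochore and centromere genes, Clasp2 (-0.18) among 33 spindle and cytokinesis genes and Cep192 (-0.21) among 12 centriole and centrosome genes, named after their values were seen. Over all measured genes 12.6% passed 1.5-fold on the Th9+IFNgamma side and 15.5% on the Th9 side. Of 33 further spindle and cytokinesis genes measured, 25 passed 1.5-fold on the Th9+IFNgamma side and none on the Th9 side, and their median was 0.82. The largest differences were those of Troap (2.33-fold), Cit, which encodes citron kinase of cytokinesis (2.15-fold), and Spag5, a spindle factor (2.13-fold). Of 32 further kinetochore and centromere genes, 15 passed 1.5-fold on the Th9+IFNgamma side, around a median of 0.54. They were led by Cenpm (838.7 in Th9+IFNgamma cells, 324.5 in Th9 cells), Ska1, a microtubule-binding partner of the Ndc80 complex (2.42-fold), and Pmf1, a subunit of the Mis12 complex (2.09-fold). Centriole and centrosome genes had a median of 0.53, and 5 of 12 passed 1.5-fold upwards, led by Cenpj (1.81-fold), Cdk5rap2 (1.70-fold) and Nek2, a centrosomal kinase (1.62-fold). That share rests on few genes.

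Other lists had smaller medians. Over 18 genes of the anaphase-promoting complex and its partners the median was 0.17. Of these, 4 were at least 1.5-fold higher (22.2%, against 12.6% of all genes), a share that rests on few genes. Fbxo5, an inhibitor of the complex (1.94-fold), Fzr1, its activator in G1 (1.81-fold, but 0.33 on the log2 scale by its probe with the smallest difference), and Ube2s, its chain-extending enzyme (1.60-fold), led that list. Cohesin and the remaining condensin genes had a median of 0.42, and 3 of 14 passed 1.5-fold upwards (21.4%, against 12.6% of all genes). They were Esco2, the acetyltransferase of S phase cohesion (608.5 in Th9+IFNgamma cells, 221.9 in Th9 cells), Ncapg2 (1.78-fold) and Cdca5, which encodes sororin (1.58-fold). Among 23 regulators of mitotic entry and exit, 10 passed 1.5-fold upwards and 1 downwards, around a median of 0.52. Rbl1, a pocket protein that is itself a target of E2F factors (2.31-fold), Ccnf (2.22-fold) and the kinase gene Pbk (2.09-fold) led it. A pair of genes chosen after their values were seen add detail. Foxm1, the transcription factor of G2 and M genes, was read at 3546 in Th9+IFNgamma cells and 1711 in Th9 cells, and Rbl2, the pocket protein of resting cells, was the 1 that passed downwards, at 329.8 in Th9+IFNgamma cells and 576.5 in Th9 cells.

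G1 and S phase genes had a median of 0.40, with 13 of 39 (33.3%) at least 1.5-fold higher, against 44 of 50 (88.0%) of the mitotic members. Tk1, thymidine kinase (2.42-fold), Tyms, thymidylate synthase (2.38-fold), and Pola1, a DNA polymerase (2.04-fold), led them. Genes of cell cycle arrest and exit had a median of -0.17, and 5 of 15 passed 1.5-fold downwards against 1 upwards. Over all genes 15.5% passed downwards and 12.6% upwards. Gadd45a, a stress-induced growth arrest gene, had 145.2 in Th9+IFNgamma cells and 658.7 in Th9 cells (4.54-fold lower). The CDK inhibitor gene Cdkn1c was dim at 34.5 in Th9+IFNgamma cells and 71.2 in Th9 cells, and its log2 difference of -1.05 was -0.48 with normexp. Cdkn2c, another CDK inhibitor gene and one that E2F factors induce, ran the other way, at 3075 in Th9+IFNgamma cells and 704.8 in Th9 cells (4.36-fold higher). The CDK inhibitor gene Cdkn1a, chosen after its value was seen, was read at 4629 in Th9+IFNgamma cells and 9019 in Th9 cells. The Cdkn2b probe passed the background call in Th9+IFNgamma cells alone (28.1, against 13.6 in Th9 cells), at least 2.06-fold higher, and that of Cdkn2a likewise (16.9, against 2.91 in Th9 cells), at least 1.35-fold higher. The medians of the members and of these lists differ, but a difference between lists on 2 arrays has no test.

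**Figure D4:**
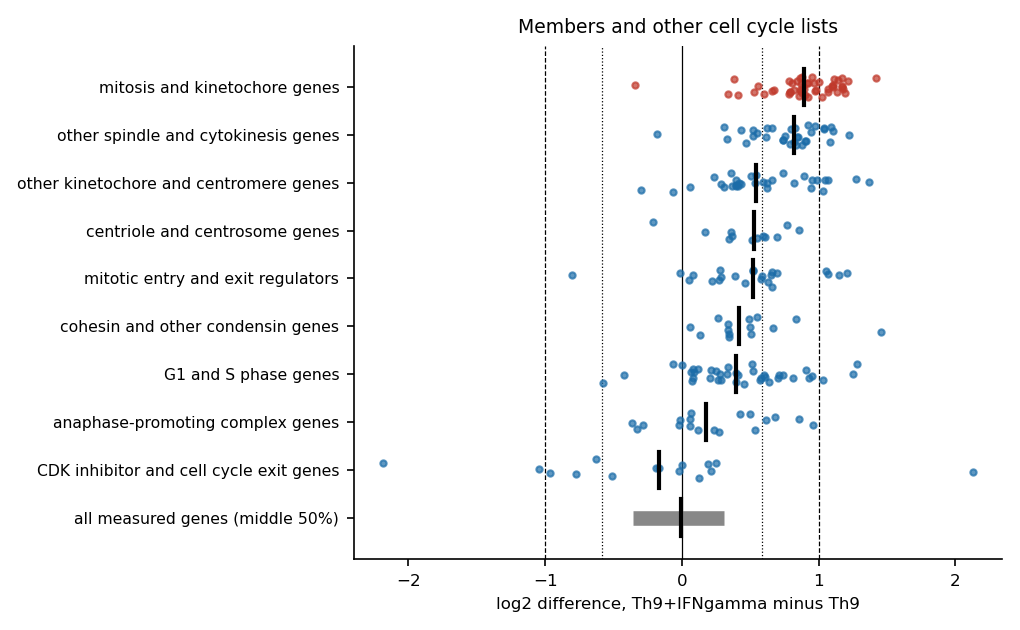
Log2 difference between Th9+IFNgamma and Th9 (horizontal axis) of each measured gene (points) in the 50 members (red) and 8 other cell cycle lists (blue), with list medians as black bars, the middle 50% of all 12272 genes as a grey bar, and lines at 0 (solid), 1.5-fold (dotted) and 2-fold (dashed). The median is highest for the members (0.90) and lowest for the arrest and exit genes (-0.17).

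The software called 60.6% of probes well above background in Th9+IFNgamma cells and 59.9% in Th9 cells. All 10 T cell markers were well above background on both, with Cd3d at 52710 in Th9+IFNgamma cells and 52667 in Th9 cells, and Cd4 at 501.7 in Th9+IFNgamma cells and 443.7 in Th9 cells. The 10 markers did not share a direction: 7 were higher and 3 lower in Th9+IFNgamma. Log2 differences ran from -0.63 for Cd2 to 1.09 for Cd247 (0.19 by another of its 3 probes). The summed signal was 311694 in Th9+IFNgamma cells and 244292 in Th9 cells, and a sum is weighted towards its brightest probes. Most of this gap came from Thy1 (136706 in Th9+IFNgamma cells, 89089 in Th9 cells). Il9, the cytokine that defines Th9 cells, was read at 5661 in Th9+IFNgamma cells and 59618 in Th9 cells. The summed signal of 6 B cell markers was 995 in Th9+IFNgamma cells and 1520 in Th9 cells, that of 7 myeloid markers 111.4 in Th9+IFNgamma cells and 274.9 in Th9 cells, and that of 4 NK cell markers 166.1 in Th9+IFNgamma cells and 204.5 in Th9 cells. The myeloid gap came mostly from Adgre1 (25.8 in Th9+IFNgamma cells, 185.6 in Th9 cells), while Cd14 had a log2 difference of 0.31 and Csf1r one of -0.01. Of the NK cell markers, Klrk1 ran against the sum, at 127.5 in Th9+IFNgamma cells and 90.5 in Th9 cells. Higher in Th9+IFNgamma, as the mitotic genes were, were the erythroid genes Klf1 (87.1 in Th9+IFNgamma cells, 30.1 in Th9 cells) and Hba-a1 (119.6 in Th9+IFNgamma cells, 53.4 in Th9 cells), and Cd8a (1338 in Th9+IFNgamma cells, 1074 in Th9 cells). With normexp the log2 difference of Klf1 was 0.49 in place of 1.54, and that of Hba-a1 0.63 in place of 1.16. The 3 probes of Hbb-bt disagreed in sign, from -0.47 to 0.54. Those of Cd8a, also 3, gave log2 differences from 0.08 to 0.38. Pax5, Lyz2, Itgam, Itgax, Ncr1 and Alas2, which define such other cells, did not pass the call well above background in Th9+IFNgamma cells or in Th9 cells. Well above background were 4 of the 6 B cell markers in Th9+IFNgamma cells and 5 in Th9 cells, and, in Th9+IFNgamma and Th9 cells alike, 4 of 7 myeloid and 3 of 4 NK cell markers. The part of these cells in the mitotic signals was not tested.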

How the data were processed

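RNA of 2 cultures, 1 per condition, was read on single-colour Cy3 arrays from 500 ng of total RNA, per the labels. The authors deposited intensity values made in Agilent Feature Extraction (version 10.7.3.1 per the file headers, 10.7 per the submitters' processing notes), background-subtracted and detrended within each array and not scaled between arrays. Of 41174 probes, 3 flagged as outliers were left out, and 27050 were named through RefSeq accessions (GRCm38.p6 table). Log2 processed signals were averaged over the spots of each probe, and the 75th percentile of the array was subtracted, which was 631.9 in Th9+IFNgamma cells and 567.0 in Th9 cells. Linear signals are at a common percentile of 598.6. Each gene was represented by its brightest probe, of those called well above background in Th9+IFNgamma and in Th9 cells. Differences are described against 1.5-fold and 2-fold limits. Without replicates there is no test, and the number of arrays limits the precision.

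Alternatives were another scaling (median, 75th percentile of detected probes, quantile, loess), normexp with an offset of 50 (limma 3.58.1) on median spot signals and median backgrounds, another filter or probe rule, and the log2 table deposited by the authors. That log2 table equals the median processed signal minus the 75th percentile (offset SD 2.5e-07 and 2.2e-07; column medians -4.05 for Th9+IFNgamma and -3.93 for Th9), so its scale, centring and direction are known. The fold and median calculations were tested on simulated data. The summed erythroid marker level is not reported here. The members and lists were chosen with earlier results of these data known. All members are named, and from each other cell cycle list the 3 largest differences whose probes agree in sign.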

Additional observations from a re-analysis of the deposited data

How the results depend on the processing

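Under the 10 alternatives the count of members at least 1.5-fold higher in Th9+IFNgamma ran from 41 to 46 (44 as reported), and no member was at least 1.5-fold lower in any. The count at least 2-fold higher ran from 13 to 17 under 9 of them and was 26 with median scaling, which shifts every log2 difference upwards. The median over the members ran from 0.83 to 1.01. The medians of the 8 role groups and 8 other cell cycle lists moved by less than the software error of a single gene. Bub1, with a log2 difference of 1.00 as reported, had -0.051 when the probe with the smallest difference was taken, since its 2 probes disagree. Normexp moved Anln, Ttk and Racgap1, for a cause that was not tested, and for Anln no value was possible at signals of at least 100. The brightest probe was picked anew under normexp, and whether Racgap1 changed probe was not recorded. No paired analysis was possible because each condition had 1 array, and for the same reason no replicate could be left out.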

Other observations

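The letters of an E2F site (TTTGGCGC, TTTCGCGC, TTTCCCGC or TTTGCCGC on either strand) were counted in the same windows as the CHR. They stood in 3 of 48 windows of the mitotic members (6.25%), in 14 of 39 windows of the G1 and S phase genes (35.9%) and in 2.26% of all 32851 windows. Between these lay further kinetochore and centromere genes with 5 of 31 (16.1%) and regulators of mitotic entry and exit with 5 of 20. Cohesin and the remaining condensin genes held both kinds of letters often, E2F in 4 of 13 windows (30.8%) and the CHR in 6 of 13 (46.2%). The CHR stood in 7 of the 39 windows of the G1 and S phase genes (17.9%) and in 4 of 20 windows of the anaphase-promoting complex list, against 19.2% of all windows. In the windows of further spindle and cytokinesis genes it stood in 17 of 35 (48.6%), in those of further kinetochore and centromere genes in 14 of 31 (45.2%), and in those of arrest and exit genes in 1 of 20. These are counts of letters, with no test and no reading of the cause.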
